A study of Gallus gallus with 4 samples.

Results

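GFPT2 and EOGT are enzymes at opposite ends of one sugar route, and both were among the transcripts listed as higher in cranial than in trunk neural crest cells of the chick embryo. They were chosen by name, with their higher cranial values already known, from the 212 rows of the authors' deposited table. GFPT2 stands there under its symbol, and EOGT under the protein entry name AER61_CHICK, which was matched to EOGT through the older symbol AER61 in the RefSeq gene table of assembly GRCg7b. The 2 rows are compared below with the other 210.

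The hexosamine pathway turns fructose-6-phosphate and glutamine into UDP-N-acetylglucosamine (UDP-GlcNAc), the donor sugar for N-glycans, hyaluronan, heparan sulfate and O-GlcNAc. GFPT2, also called GFAT2, is a paralog of GFPT1, and both catalyse the entry step of the pathway, which limits its rate. EOGT lies at the using end: in the endoplasmic reticulum it attaches a single GlcNAc to EGF-like domains of secreted and membrane proteins, Notch receptors among them. It is a different enzyme from OGT, which modifies nuclear and cytoplasmic proteins. In humans, mutations of EOGT cause a form of Adams-Oliver syndrome, with defects of scalp and limbs.

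RNA was sequenced from GFP-positive living cells sorted from dissociated embryos, with 2 libraries for each group. The cranial group (libraries A and B) came from embryos electroporated with the FoxD3 NC1 enhancer and taken at Hamburger-Hamilton stage HH9+, and the trunk group (libraries A and C) from embryos electroporated with the FoxD3 NC2 enhancer and taken at HH14. Cells of both groups are therefore those in which an enhancer of the crest gene FoxD3 was active, and axial level, stage and enhancer cannot be told apart in the comparison. The labels do not say whether the libraries of a group came from separate pools of embryos, and the cDNA was amplified before sequencing.

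The table gives 1 value per group and row, read as FPKM (fragment abundance per length of transcript and per depth of sequencing), and no value per library. Replicate spread and depth are unknown here, so no SD, n or test of these samples is given, and every fold below is a description of values that helped to choose the genes. The labelled tissue could not be checked by its markers, because the table holds no row higher in trunk and no gene of equal level. Of the fixed markers, SOX8 of the neural crest list of 10 and CDH1 of the surface ectoderm list of 6 were listed as higher in cranial cells, and the lists for neural tube, mesoderm, and endothelium and blood had 0 listed rows under their symbols. Listed rows were 0.807% of the 26269 tests implied by the authors' q-values, as derived further on, so short lists would hold about 0 rows at that share and these counts describe the names present, no more. The part of such other cells in the GFPT2 and EOGT values was not tested. In sorted pools, a larger share of expressing cells and more RNA per cell cannot be told apart.

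In the authors' deposited table, GFPT2 was listed at 80.4 FPKM in cranial cells, against 27.3 FPKM in the trunk. The cranial value was 2.95-fold the trunk value (log2 1.56), a difference of 53.1 FPKM computed from the authors' deposited table. The transcript was abundant for the listed rows at both axial levels, and the trunk value was 33.9% of the cranial one. GFPT2 ranked 16th of 212 by cranial level and 18th by trunk level in the authors' deposited table. All 212 rows were listed as higher in cranial cells, so these ranks do not place GFPT2 among all transcripts of either group. The annotated gene overlaps its neighbour CNOT6 in GRCg7b, and the part of CNOT6 reads in these values was not tested.

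In the authors' deposited table, EOGT was listed at 11.9 FPKM in cranial cells, against 3.80 FPKM in the trunk. That is 3.13-fold higher in cranial cells (log2 1.65), a difference of 8.10 FPKM between the values of the authors' deposited table. Among the listed rows, EOGT was a transcript of middling level, ranking 109th by cranial level and 89th by trunk level. The median row of the authors' deposited table stood at 12.1 FPKM in cranial cells and 2.72 FPKM in the trunk.

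**Figure D1:**
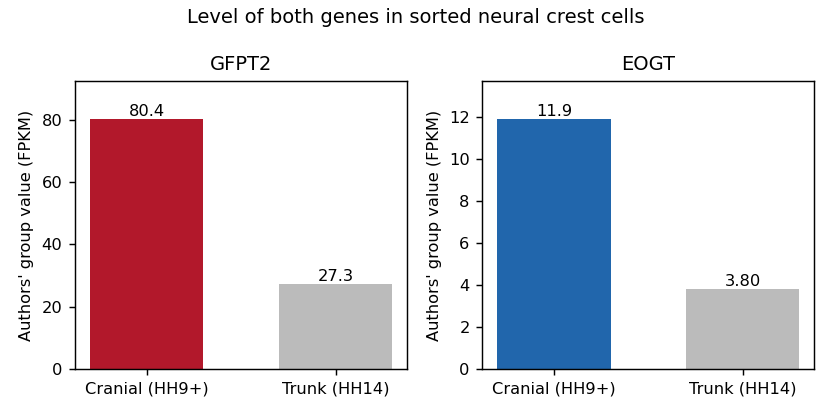
Level of GFPT2 (left panel) and EOGT (right panel) in cranial cells at HH9+ and trunk cells at HH14, as the authors' 1 value per group in FPKM, with no error bars because no value per library was used. The bars start at 0 and the panels have different scales; cranial stands at 80.4 against 27.3 FPKM for GFPT2, and at 11.9 against 3.80 FPKM for EOGT.

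The transcripts of both genes kept nearly the same proportion to each other at both axial levels. On the FPKM scale, which is per length of transcript, the GFPT2 level was 6.76 times that of EOGT in cranial cells and 7.18 times in trunk cells, from the authors' deposited table. Their log2 folds differed by 0.09 (EOGT minus GFPT2), less than the error of either fold given below. Which of them had the larger fold depended on low-level scaling. Adding 1 FPKM to each value in the authors' deposited table gave a log2 fold of 1.52 for GFPT2 and 1.43 for EOGT. Such likeness was not particular to the pair, as 29 other rows, EOGT among them, had a log2 fold within 0.25 of that of GFPT2.

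Both genes carried the authors' mark of significance, as did 100% of the rows of the table, which is a selected list. The authors' deposited table gives GFPT2 a test score of 8.27 and q = 2.16e-13. It gives EOGT a score of 7.39 and q = 8.23e-11. These p-values are the authors' own, from a test whose use of the 2 libraries per group is not stated. The GFPT2 p of 2.22e-16 in the authors' deposited table equals the smallest step of double-precision numbers near 1, so its exact size cannot be read.

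The differences were of moderate size for the table. Both genes passed 2-fold, as did 81.6% of all rows of the authors' deposited table, and 0 of the 2 passed 4-fold, which 54.2% of rows did. EOGT ranked 136th and GFPT2 140th of 212 by fold, below the median of 4.34-fold in the authors' deposited table. Of the 135 rows with a larger fold than EOGT, 109 had a lower trunk level than EOGT. Of the 18 rows with a trunk value at least that of GFPT2, itself included, 5 had a larger fold than GFPT2, and the median of the 18 was 2.40-fold in the authors' deposited table. Of the 89 rows with a trunk value at least that of EOGT, itself included, 26 had a larger fold than EOGT. The median of the 89 was 2.41-fold. A floor on the trunk value, the divisor of the fold, favours rows of small fold. Of the 78 other rows with a cranial level within 2-fold of that of EOGT, 48 had a larger fold (median 3.90-fold). Of the 61 matched in the same way on trunk level, 38 did (median 3.88-fold). For GFPT2, 16 of 28 rows matched on cranial level had a larger fold (median 3.22-fold), and 11 of 31 on trunk level (median 2.28-fold).

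**Figure D2:**
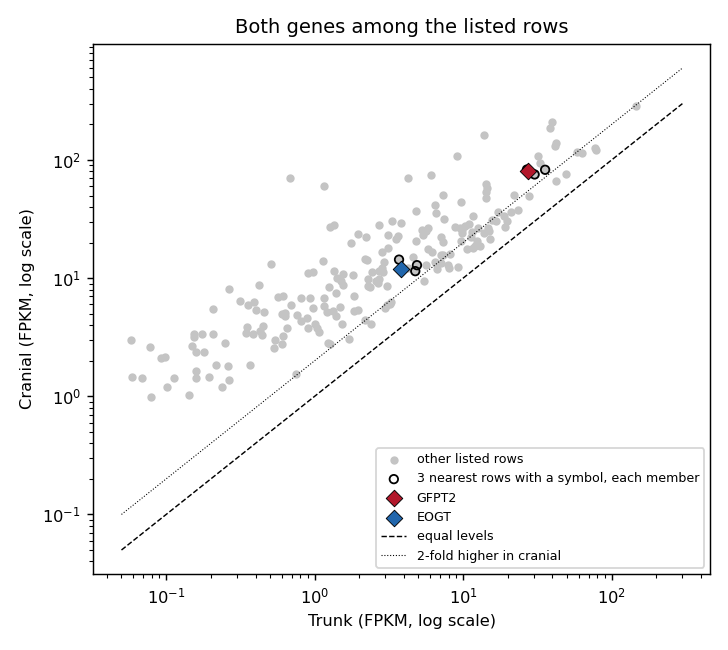
Cranial value against trunk value of all 212 rows of the authors' deposited table, both in FPKM on log axes, with GFPT2 and EOGT as diamonds, the 3 rows with a symbol nearest to each as open circles, and lines for equal levels and for a 2-fold difference. GFPT2 (80.4 against 27.3 FPKM) lies among the abundant rows and EOGT (11.9 against 3.80 FPKM) in the middle of the cloud, both above the 2-fold line.

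Their place by test score was different from their place by fold. GFPT2 ranked 4th and EOGT 12th of 212 by the score in the authors' deposited table. The 12 rows with the highest scores had a median of 6.29-fold, and GFPT2 had the smallest fold among them. The other named genes of that group were AGTRAP, TRPM2, ASTN1, DPP6, PAK1 and ADAMTS15, between 3.60-fold (PAK1, a kinase of the actin cytoskeleton) and 20.6-fold (ADAMTS15, a secreted protease) in the authors' deposited table. These 6 were named after their values were seen.

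A high score at a moderate fold corresponds to a small error. Dividing the log2 fold, cranial over trunk, by the score gives an implied standard error (SE). This rests on the assumption, not stated in the file headers, that the score was made by dividing a log fold by its error. The deposited scores of both genes are positive and their deposited log2 folds, trunk over cranial, are negative, so the assumption concerns sizes only. The EOGT score gives a two-sided normal p of 1.44e-13, the same as the p in the authors' deposited table to 3 digits. That match bears on how the p was made from the score, not on how the score was made. The implied SE was 0.19 for GFPT2 and 0.22 for EOGT on the log2 scale, against a median of 0.51 over all rows. One implied SE either side spans 2.58-fold to 3.36-fold for GFPT2 and 2.68-fold to 3.65-fold for EOGT. This error comes from the authors' model and is not a spread between libraries measured here.

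Rows of nearly the same fold had larger implied errors than GFPT2. Among the 29 other rows with a log2 fold within 0.25 of that of GFPT2, 0 had a smaller implied SE, and the median was 0.37. Among the 30 other rows within 0.25 of EOGT, 2 had a smaller implied SE, GFPT2 itself and the row listed as Q5ZLR3_CHICK, and the median was 0.39. At a like fold, a smaller implied SE is the same fact as a higher score, so these counts restate the scores. Since the table holds only rows that passed the authors' threshold, rows of the same fold with a much larger error could not have been listed. The second point holds also for the rows nearest in level, given below, and the first for those of them with a like fold.

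**Figure D3:**
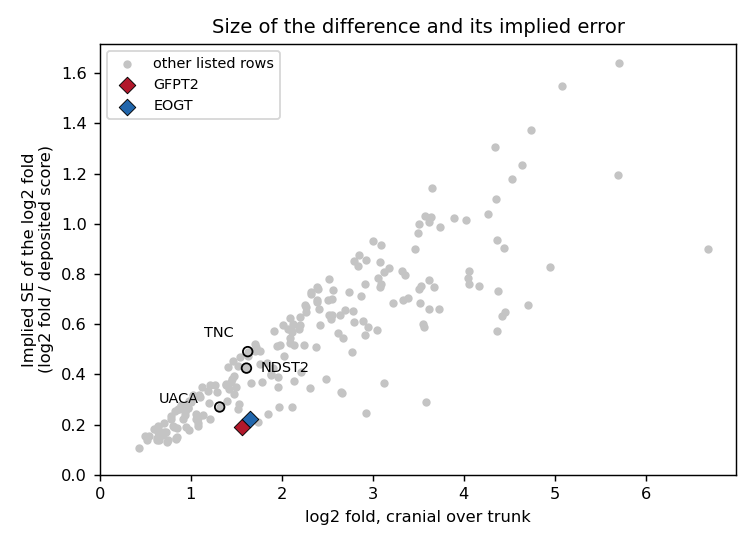
Implied SE of the log2 fold (log2 fold divided by the deposited score) against the log2 fold, cranial over trunk, for all 212 rows, with GFPT2 and EOGT as diamonds and TNC, NDST2 and UACA as open circles. GFPT2 (0.19) and EOGT (0.22) lie at the lower edge of the rows with a like fold, while TNC (0.49) and NDST2 (0.43) lie higher at almost the same fold.

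The 3 rows with a symbol most like GFPT2 in level had lower scores and larger implied errors. Likeness was the distance in log2 cranial and log2 trunk value over the 2 conditions. The nearest row with a symbol was TNC, which encodes the matrix glycoprotein tenascin-C, at 83.0 FPKM in cranial cells, against 26.9 FPKM in the trunk, per the authors' deposited table (implied SE 0.49, q = 0.0351). UACA followed at 75.5 FPKM in cranial cells, against 30.3 FPKM in the trunk, per the authors' deposited table (implied SE 0.27, q = 0.000144). NID2, which encodes the basement membrane protein nidogen-2, stood at 82.7 FPKM in cranial cells, against 35.7 FPKM in the trunk, per the authors' deposited table (implied SE 0.36, q = 0.0285). TNC thus had nearly the same pair of values as GFPT2 with 2.60 times its implied error, and its q lay close to the authors' threshold. The implied SE of TNC was near the highest, 0.52, among the 29 other rows with a fold like that of GFPT2. A row without a symbol, listed as Q5ZIT4_CHICK, lay slightly nearer to GFPT2 than TNC did. It had a smaller implied SE than TNC, though larger than GFPT2 (implied SE 0.35, q = 0.00177). Over the 28 other rows with a cranial level within 2-fold of that of GFPT2, 4 had a smaller implied SE (median 0.36), and over the 31 other rows matched in the same way on trunk level 10 did (median 0.25).

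For EOGT, the nearest row with a symbol was MAP3K5, the stress-activated kinase also called ASK1, at 14.4 FPKM in cranial cells, against 3.70 FPKM in the trunk, per the authors' deposited table (implied SE 0.39, q = 7.69e-05). NCKIPSD, whose product binds the adaptor protein NCK, stood at 11.5 FPKM in cranial cells, against 4.76 FPKM in the trunk, per the authors' deposited table (implied SE 0.36, q = 0.0199). ACP1, a low molecular weight phosphotyrosine phosphatase listed as PPAC_CHICK, stood at 12.9 FPKM in cranial cells, against 4.89 FPKM in the trunk, per the authors' deposited table (implied SE 0.29, q = 0.000220). All 3 had a larger implied SE than EOGT. A row without a symbol, listed as Q5F460_CHICK, lay nearer to EOGT than these. It stood at 12.2 FPKM in cranial cells, against 4.23 FPKM in the trunk (implied SE 0.28, q = 1.32e-05). Over the 78 other rows with a cranial level within 2-fold of that of EOGT, 16 had a smaller implied SE (median 0.44), and over the 61 other rows matched on trunk level 7 did (median 0.40).

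The q-values also placed both genes among tests outside the table. A Benjamini-Hochberg q is the p multiplied by the number of tests and divided by the rank of that p. The smallest number of tests that came near the highest count of whole ranks, among the 60 rows used, was sought. The best fit there was 26269, which made the rank whole for 53 rows within 0.001 or 8e-06 of the rank, whichever was larger. A whole multiple of 26269 would make those ranks whole too. It would raise the ranks below and lower the 0.807% share of listed rows. On that number the GFPT2 p ranked 27th, tied with the row listed as Q5ZLR3_CHICK, and the EOGT p 46th, over both directions of change. The last listed row ranked 790th, so at least 790 tests, 3.01% of 26269, lay at or below the largest listed q of 0.0485. What was counted as a test is not stated, and may include more than 1 test per gene or more than this comparison.

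The other enzymes of the route on the fixed lists had no row under their symbols. The hexosamine pathway list of 11 genes, from GFPT1 through GNPNAT1, PGM3 and UAP1 to the salvage and breakdown enzymes, had 1 listed row, GFPT2. The O-GlcNAc list of 4 entries, which names OGT and the O-GlcNAc removing enzyme OGA under 2 symbols, had EOGT only. In the list of 14 genes for O-linked sugars of EGF-like domains and for the enzyme family of EOGT, EOGT was again the 1 listed row, with 0 rows for POFUT1, POGLUT1 and the fringe genes LFNG, MFNG and RFNG. The 26 genes for UDP-GlcNAc transport and use, the hyaluronan synthases HAS1, HAS2 and HAS3 among them, had 0 listed rows. The 27 genes for glucose and glutamine supply and the 16 genes of the Notch list also had 0. GFPT2 and EOGT were the genes chosen, so their presence on these lists is no result, and with listed rows at 0.807% of the implied tests lists of this length would mostly hold none. A gene without a row has no value here, which does not show that it was equal between the groups. A further 69 rows carried no symbol and were not searched.

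A pair of rows outside those lists have to do with sugars, and were chosen by name once the values had been seen. NDST2, an enzyme that removes acetyl groups from GlcNAc in heparan sulfate and adds sulfate in their place, stood beside GFPT2 in fold. It was listed at 27.1 FPKM in cranial cells, against 8.89 FPKM in the trunk, per the authors' deposited table, 3.06-fold (log2 1.61, implied SE 0.43, q = 0.00871). Its fold ranked 139th, next to GFPT2, and its score 129th. GTDC1, named for a glycosyltransferase-like domain, had 5.55 FPKM in cranial cells, against 2.998 FPKM in the trunk, per the authors' deposited table (1.85-fold, implied SE 0.28, q = 0.0476). Its fold ranked 184th and its score 209th.

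EOGT acts on proteins with EGF-like domains, and 5 listed genes known to encode such domains were picked in the same way. CFC1, of the EGF-CFC family of Nodal co-receptors, had 28.3 FPKM in cranial cells, against 1.36 FPKM in the trunk, per the authors' deposited table. LRP1B, a large receptor of the LDL receptor family, had 75.2 FPKM in cranial cells, against 6.04 FPKM in the trunk (12.5-fold, implied SE 1.03, q = 0.0192), per the authors' deposited table. CNTNAP5, a cell adhesion gene of the nervous system, had 2.79 FPKM in cranial cells against 0.607 FPKM in the trunk (4.59-fold), in the authors' deposited table. TNC and NID2, described above, complete the group. The CNTNAP5 fold rests on a low trunk level and was 2.36-fold with 1 FPKM added. Of the 5, 3 had a larger fold than EOGT as deposited, as did 135 of all 212 rows, so the count is no result about these genes. Whether any of the proteins carries the sugar was not measured.

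The nearest other listed rows on the same chromosome lay at least 0.981 Mb from either gene. Whether listed rows were grouped along a chromosome was not tested. GFPT2 (ENSGALG00000013760) lies on chromosome 13 from 14067665 to 14089242, an interval of 21578 bp, and EOGT (ENSGALG00000013406) on chromosome 12 from 15682583 to 15707222, an interval of 24640 bp, both as written in the authors' deposited table. The processing notes name galGal4, but some rows carry sequence names of galGal3, so the build is not settled, and the loci were not divided into exons, introns or UTRs. On chromosome 13, with 6 listed rows, the nearest to GFPT2 were an unnamed row 0.981 Mb before it and GFRA3, a receptor for GDNF family ligands, 4.63 Mb after it. On chromosome 12, with 3 listed rows, the nearest to EOGT was NCKIPSD, 6.42 Mb before it. No other listed row overlapped either locus.

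In the gene order of GRCg7b, GFPT2 stands between CNOT6 and MAPK9, and EOGT between FAM19A4 and TMF1, and none of these 4 neighbours was listed under its symbol. The GFPT2 locus is not shared with another row in the authors' deposited table, and the overlap with CNOT6 is known here only for GRCg7b, which is not the build of that table. The labels do not say whether strand was used in counting.

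The fold of GFPT2 was less affected by an added constant than that of EOGT, as its levels were higher. When 5 FPKM was added to each value in the authors' deposited table, GFPT2 stood at 2.64-fold and EOGT at 1.92-fold. The rank by fold of GFPT2 was 46th of 212 under that setting, and that of EOGT 91st. Over all rows, the median log2 fold was 0.84 with 5 FPKM added and 2.12 as deposited.

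**Figure D4:**
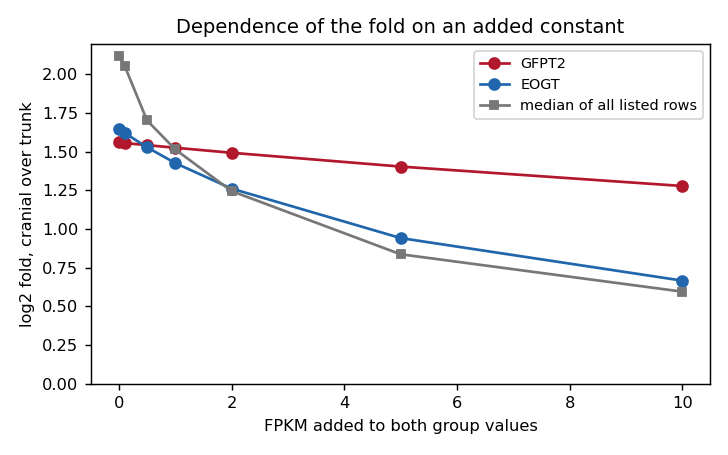
Log2 fold, cranial over trunk, against the constant in FPKM added to both group values (0 to 10), for GFPT2, EOGT and the median of all 212 rows. GFPT2 stays between 1.28 and 1.56, and EOGT runs between 0.67 and 1.65, close to the median of all rows from 1 FPKM upward. A constant added to both values cannot turn the direction.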

How the data were processed

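The authors' deposited table holds 1 cranial and 1 trunk value per row, a log2 fold, a test score, a p-value and a q-value. The group values were read as FPKM because the submitters' processing notes name Cuffdiff 2.1, which writes that unit, beside TopHat, Cufflinks and galGal4, with no role or order; no unit stands in the file headers. The deposited log2 fold is trunk over cranial and matched the log2 ratio recomputed from the group values (within 0.0001, 212 of 212 rows); it was turned round here. From the deposited p-value and q-value the number of tests was inferred, a step tested on simulated data. Of 212 rows, 143 received a symbol, 23 of them through names translated by hand. The members and gene lists were chosen with earlier results of these data known. The text names both members, listed genes of 6 pathway lists, the 3 nearest rows with a symbol and neighbouring rows; exceptions are stated. No sequence table was used here, so the planned searches of proteins and promoters were not run and no sequence is printed. No count per library was used, so depth and its precision are unknown. Python 3.11.15, pandas 2.3.3, NumPy 2.4.6 and SciPy 1.17.1 were used.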

Additional observations from a re-analysis of the deposited data

How the results depend on the processing

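A constant added to both values cannot turn the direction, so these alternatives bear only on the size of a fold. Of 16 alternatives over 7 results, 12 moved the value by less than 1 implied SE (folds) or less than 1.5 times (ranks, ratios and counts). Some of these 12 were settled in advance, so the tally does not measure how firm the values are. Leaving out the 10 rows that share a locus could shift a rank by 10 at most. Adding 0.1 FPKM is small beside every level of both genes, and the count at q under 0.01 was sure to keep GFPT2. Ranks with 5 FPKM added were not among the 16. They were 46th for GFPT2 and 91st for EOGT, in place of 140th and 136th. The log2 fold of EOGT was 0.94 with 5 FPKM added, in place of 1.65, since 5 FPKM exceeds its trunk level. Over the 149 rows with at least 1 FPKM in both groups, the rank by fold was 78 for GFPT2 and 74 for EOGT, in place of 140 and 136. The rows left out had less than 1 FPKM in the trunk, and most of them had a larger fold than both genes. The pathway lists held 1 row by the names as given and 2 with translated names, the second being EOGT. With 1 FPKM added, the GFPT2 to EOGT ratio was 6.31 in cranial cells and 5.89 in trunk cells, the reverse of the order without it. No paired analysis was possible because libraries have no values of their own in the deposited table (besides, A is the sole replicate letter in common). Leaving out each library was not run for the same reason, and the consensus search was not run for want of protein sequences. Depth is unknown, so its limit on these values cannot be given.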
